A study of Canis lupus familiaris with 6 samples.

Results

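The desmosomal plaque genes described here are the 8 genes DSP, JUP, PKP1, PKP2, PKP3, PKP4, PERP and CTNND1, picked by symbol from a table of 35993 genes. The rule used no measured value, but it was set with earlier results of these data known. All 8 were found, and all 8 were among the 14708 genes that passed the filter on low counts. CPEK cells, a canine epidermal keratinocyte line labelled as wild type, were exposed for 30 s to cold atmospheric microwave plasma (CAMP) applied directly to the culture (dCAMP, 3 libraries) or to gas alone (gas control, 3 libraries). Both groups had their medium replaced 15 min later, and RNA was taken after a further 24 h, so the comparison covers 1 cell line at 1 time point. The labels do not say that the 3 libraries of a group came from separate experiments, and the p-values therefore measure the spread between these libraries only. The question asked of these samples was which transcripts direct CAMP treatment alters in canine keratinocytes.

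A desmosome is a spot weld between neighbouring epithelial cells. Its cadherins, the desmogleins and desmocollins, cross the membrane, and their tails are bound inside the cell by armadillo-repeat proteins, plakoglobin (JUP) and the plakophilins (PKP1 to PKP3). These bind desmoplakin (DSP), a long plakin that holds the keratin filaments. PERP is a membrane protein with several transmembrane passes that desmosomes of stratified epithelia need. CTNND1 (p120-catenin) and PKP4 are armadillo relatives of the plakophilins. CTNND1 belongs mainly to the adherens junction, where it binds the tail of E-cadherin, and PKP4 is found at both kinds of junction.

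The libraries held between 43084921 and 54082634 counts. Replicates of the gas control agreed less than those of dCAMP-treated cells: a chi-square test of their counts, whose statistic divided by its degrees of freedom is near 1 under pure sampling noise, gave 85.3 to 317.1 for pairs of gas libraries against 6.50 to 10.1 for pairs of dCAMP libraries. The share of counts from mitochondrial genes was 0.509%, 1.42% and 2.35% in gas libraries 1, 2 and 3, whereas it was 2.19% to 2.24% in all dCAMP libraries. Gas 1 stood farthest from the dCAMP libraries and gas 3 nearest to them, so for each plaque gene the values without single libraries are given where they change a call or move the fold change by over 1.5 times. The keratinocyte identity on the label was borne by the data: all 7 keratinocyte markers were detected in every library, with a summed level of 18653 to 23571 FPKM (fragments per kilobase of transcript, scaled to the mapped reads) in the gas control versus 17287 to 18422 in dCAMP-treated cells. Of the markers of other cell types, 3 of 7 for fibroblasts (PDGFRB, DCN, LUM), 2 of 5 for melanocytes (TYR, DCT), 1 of 4 for endothelium (PECAM1) and 3 of 4 for leukocytes (PTPRC, CD3E, CSF1R) had 0 counts in every library, and the summed level of each list stayed between 0.198 and 3.13 FPKM. Of the markers that were detected, KDR (unadjusted p = 0.0275 in edgeR), CDH5 (0.0412) and MLANA (0.0102) were higher and COL1A1 (0.0441) was lower in dCAMP-treated cells, each without overlap and with an edgeR adjusted p of 0.221 or more. Tested were 3 fibroblast, 3 melanocyte, 3 endothelial and 1 leukocyte marker. Of all genes tested, 20.7% had an unadjusted p under 0.05 in edgeR, and 39.9% had groups without overlap. MLANA had 0 to 16 counts per library and CDH5 had 18 to 40. The summed endothelial level was at most 2.39 FPKM in the gas control and 2.53 to 3.13 FPKM after dCAMP, and the part of these markers in the plaque values was not tested.

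Read counts were compared between groups with edgeR's quasi-likelihood test, and p-values were adjusted by the Benjamini-Hochberg method over all genes tested. Levels in CPM are counts scaled to a common library size after TMM normalization, and they serve to compare 1 gene between libraries. FPKM values also account for transcript length, and they alone are used to compare genes with each other. With all 6 libraries, 0 of the 8 plaque genes had an adjusted p under 0.05, and among all genes tested the share was 0%, with a smallest edgeR adjusted p of 0.136. On the same libraries DESeq2 gave 301 genes an adjusted p under 0.05, 1 of them a plaque gene (PERP). It was run on every gene with any count, a wider set than in edgeR, and the share it called is not given. In edgeR, 3040 genes had an unadjusted p under 0.05. At an unadjusted p under 0.05, 2 of the 8 passed, PERP and PKP2, both higher in dCAMP-treated cells, where 20.7% of all genes passed in either direction and 6.81% in the higher direction. PKP2 lost that call when any 1 of 4 libraries (gas 2 or a dCAMP library) was left out. The plaque genes split into 5 that were higher and 3 that were lower in dCAMP-treated cells, beside 7706 higher and 7002 lower among all genes tested. Their median log2 fold change was 0.10, beside 0.03 over all genes tested, but was 0.0061 with upper-quartile scaling and −0.17 after a correction for gene length. The median size of the change regardless of direction was 0.20, beside 0.28 over all genes. In bulk RNA, fewer cells making a transcript and less transcript per cell cannot be told apart.

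By level per length, the plaque genes fell into 3 tiers. PERP, JUP and DSP formed the upper tier in the gas control, with 370.3 ± 65.8, 343 ± 48.2 and 308 ± 13.5 FPKM (SD, n = 3). The ranges of these 3 genes overlapped, so their order in the gas control was within the spread of the libraries. In dCAMP-treated cells PERP stood alone at 551 ± 9.12 FPKM (SD, n = 3), above DSP at 328 ± 12.5 and JUP at 303 ± 14.4, whose ranges overlapped. PKP3 and PKP1 formed the middle tier, at 112 ± 19.3 and 109 ± 20.7 FPKM in the gas control versus 91.5 ± 3.14 and 92.9 ± 3.59 after dCAMP (SD, n = 3), without separation from each other in either group. The lower tier held CTNND1 (30.7 ± 1.62 and 32.7 ± 0.811 FPKM), PKP4 (22.8 ± 2.64 and 25.3 ± 0.413) and PKP2 (14.9 ± 1.34 and 18.3 ± 0.617), in the same order in both groups and with no overlap between neighbours. Among the genes tested, PERP, JUP and DSP ranked within the top 1.49% by mean FPKM, PKP3 and PKP1 within the top 4.87%, and PKP2, the lowest, at 29.7%.

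**Figure D1:**
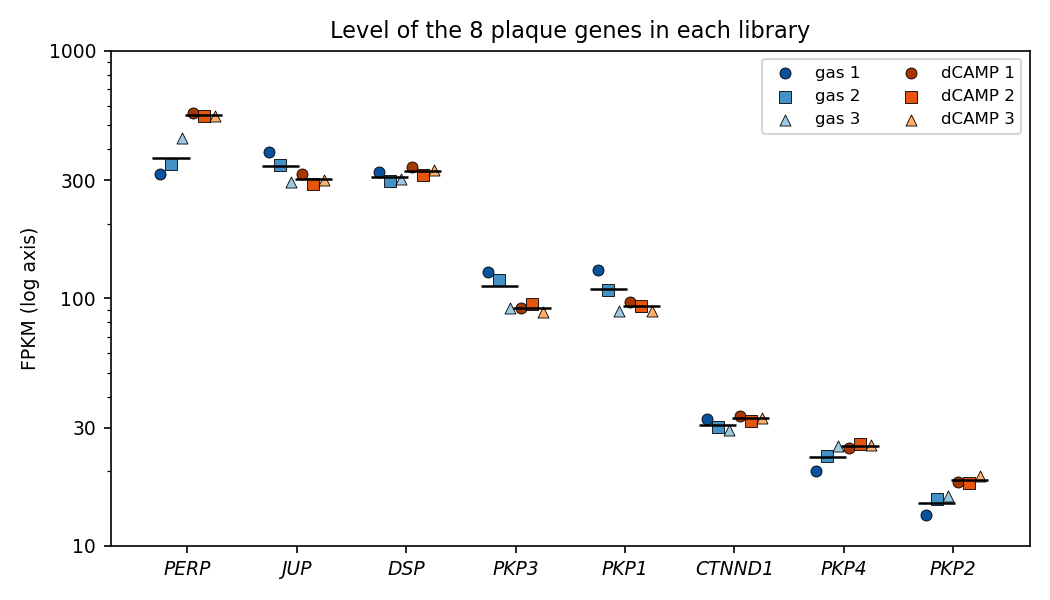
Level of each plaque gene in FPKM (log axis) in the 3 gas libraries (blue) and the 3 dCAMP libraries (orange), with horizontal lines at the group means. The 3 upper genes lie between 289 and 561 FPKM, PKP3 and PKP1 near 100 FPKM and the other 3 below 34 FPKM. PERP and PKP2 are the genes whose groups do not overlap.

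DSP encodes desmoplakin, the link between the plaque and the keratin filaments, and is transcribed from chromosome 35 (7479628 to 7524732 of CanFam3.1, gene ID 488207, 1 annotated transcript of 9541 bases). Its level was 3429, 3245 and 3338 CPM in gas libraries 1, 2 and 3 and 3721, 3407 and 3563 CPM in dCAMP libraries 1, 2 and 3. The groups overlapped, with gas 1 above dCAMP 2. The log2 fold change was 0.09 (standard error 0.07, 95% interval −0.07 to 0.25, edgeR adjusted p = 0.366), and that interval runs from 0.956-fold to 1.19-fold. The value was 0.05 without gas 2, 0.05 without gas 3, 0.06 without dCAMP 1 and 0.06 without dCAMP 3, and it turned to −0.20 with the correction for gene length, outside that interval. DSP was also the plaque gene whose gas libraries lay closest together.

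JUP encodes plakoglobin, the armadillo protein that binds the tails of desmosomal and of classical cadherins (chromosome 9, 21028773 to 21053071, gene ID 480522). Its level was 1436, 1305 and 1092 CPM in gas libraries 1, 2 and 3 and 1181, 1092 and 1117 CPM in dCAMP libraries 1, 2 and 3. Gas 1 and gas 2 were above all 3 dCAMP libraries, and gas 3 was level with the lowest of them. Fitted over all libraries, the log2 fold change was −0.18 (standard error 0.11, 95% interval −0.45 to 0.09, edgeR adjusted p = 0.333). Without gas 3 it was −0.32 with an adjusted p of 0.0291 in the same edgeR test, and without gas 1 it was −0.10 with an adjusted p of 0.526.

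CTNND1, whose product keeps classical cadherins at the cell surface, lies on chromosome 18 (38415687 to 38469777, gene ID 483489). Its level was 226, 216 and 212 CPM in gas libraries 1, 2 and 3 and 240.3, 225 and 233 CPM in dCAMP libraries 1, 2 and 3. The groups overlapped by gas 1 and dCAMP 2. The log2 fold change of 0.10 (standard error 0.07, 95% interval −0.08 to 0.27, edgeR adjusted p = 0.393) was of the size seen for DSP. The fold change was 0.03 without gas 3, 0.06 without gas 2 and 0.06 without dCAMP 3. Of all pairs of plaque genes, CTNND1 and DSP had the smallest root mean square difference between centred log2 CPM profiles (0.0229). That measure is not scaled to each gene's own variation, which was small for both (root mean square 0.064 for DSP and 0.062 for CTNND1).

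The 4 plakophilin genes differed in direction, and 0 of them had an edgeR adjusted p under 0.05. PKP2, known from basal layers, simple epithelia and heart muscle, was higher in all 3 dCAMP libraries than in any gas library, PKP4 was higher on average with overlapping groups, and PKP1 and PKP3 were lower on average with overlapping groups. PKP2 (chromosome 27, 16023186 to 16109978, gene ID 486613) measured 49.3, 58.3 and 60.9 CPM in gas libraries 1, 2 and 3 and 68.8, 67.1 and 71.8 CPM in dCAMP libraries 1, 2 and 3. The lowest dCAMP library was above the highest gas library. The log2 fold change was 0.30 (standard error 0.11, 95% interval 0.04 to 0.57, unadjusted p = 0.0301, edgeR adjusted p = 0.226). Leaving out 1 library at a time moved it between 0.20, without gas 1, and 0.32, without gas 3. The unadjusted p was no longer under 0.05 without gas 2 (0.0760), dCAMP 1 (0.0820), dCAMP 2 (0.0783) or dCAMP 3 (0.134), nor with upper-quartile factors (0.0762), the replicate block (0.0519), the length correction (0.0773) or the length correction with the block (0.172), all in edgeR.

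PKP1, the plakophilin typical of the upper epidermal layers, lies on chromosome 7 (1921143 to 1966910, gene ID 607140). It measured 714, 607 and 506 CPM in gas libraries 1, 2 and 3 and 544, 521 and 499 CPM in dCAMP libraries 1, 2 and 3. Gas 1 and gas 2 were above every dCAMP library, while gas 3 lay inside their range. The log2 fold change was −0.22 (standard error 0.13, 95% interval −0.54 to 0.10, edgeR adjusted p = 0.314). Without gas 3 it was −0.39 with an edgeR adjusted p of 0.0330, and without gas 1 it was −0.11 with an edgeR adjusted p of 0.504.

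The PKP1 value carries an uncertainty of its own. The deposited table holds a second locus, LOC100855871, described there as plakophilin-1, on the same chromosome (1530345 to 1576113), 345030 bases away at lower coordinates and with a transcript of 4920 bases against 4934 for PKP1. Its counts were 92.5% to 93.4% of those of PKP1 in every library, and among 14700 genes its profile over the 6 libraries was the closest to that of PKP1. How reads were divided between the 2 loci is not given in the sources used here, so the level of PKP1 alone is uncertain. The sum of both loci, a combination chosen after seeing the data, gave a log2 fold change of −0.22 (standard error 0.13, edgeR adjusted p = 0.316), the same as for PKP1 alone.

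PKP3 is the plakophilin expressed most widely across epithelial layers (chromosome 18, 25540073 to 25547667, gene ID 483399). It measured 361, 343 and 265 CPM in gas libraries 1, 2 and 3 and 266, 271 and 254 CPM in dCAMP libraries 1, 2 and 3. Gas 3 lay among the dCAMP libraries, and the other gas libraries were above all of them. Its log2 fold change was −0.29 (standard error 0.13, 95% interval −0.60 to 0.01, unadjusted p = 0.0588, edgeR adjusted p = 0.248), and without gas 3 it was −0.46 with an edgeR adjusted p of 0.0203.

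PKP4 spans 232958 bases of chromosome 36 (4342715 to 4575672, gene ID 478759), and its locus overlaps the gene LOC111094221. The libraries were made with a stranded kit, but whether strand was used in counting is not given in the sources used here. PKP4 measured 93.9, 110.4 and 123 CPM in gas libraries 1, 2 and 3 and 119.6, 121.7 and 121.9 CPM in dCAMP libraries 1, 2 and 3. The dCAMP libraries had a standard deviation of 1.24 CPM, and gas 3 was above them all. The fit gave a log2 fold change of 0.15 (standard error 0.11, 95% interval −0.13 to 0.43, edgeR adjusted p = 0.396). Without gas 1 it was 0.04, with an edgeR adjusted p of 0.802.

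PERP had the largest difference among the plaque genes (chromosome 1, 30418847 to 30435287, gene ID 476218, 1 annotated transcript of 1990 bases). It measured 705, 790.2 and 1019 CPM in gas libraries 1, 2 and 3 and 1279, 1232 and 1230.3 CPM in dCAMP libraries 1, 2 and 3. All 3 dCAMP libraries were above all gas libraries, and gas 3 came nearest to them. This amounted to a log2 fold change of 0.57 (standard error 0.14, 95% interval 0.23 to 0.91, 1.49-fold), with an unadjusted p of 0.00577 and an edgeR adjusted p of 0.221. Without gas 3 the log2 fold change was 0.69 with an edgeR adjusted p of 0.0203, and without other single libraries it was 0.45 or more. DESeq2, run on the same 6 libraries, gave PERP an adjusted p of 0.0498, and 0.0786 when only genes with a count in every library were kept.

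**Figure D2:**
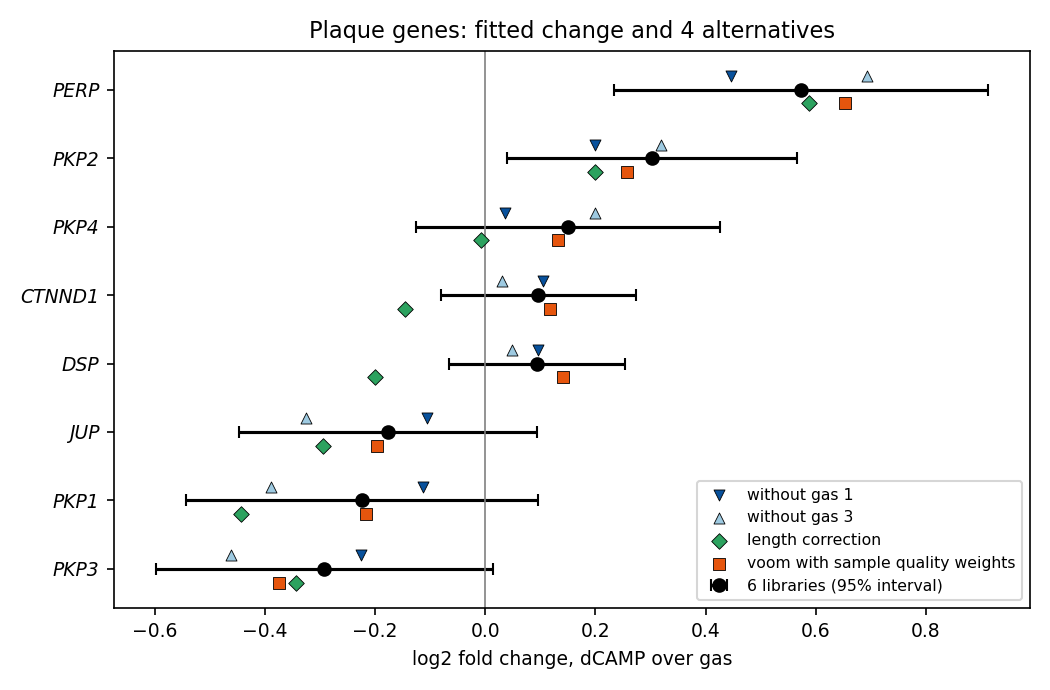
Log2 fold change of each plaque gene, dCAMP over gas, from edgeR on all 6 libraries (black, with 95% intervals) and under 4 other settings (coloured symbols, without intervals). PERP and PKP2 have intervals above 0. DSP, CTNND1 and PKP4 lie to the left of 0 after the correction for gene length, and the other 5 genes keep their direction under the settings drawn.

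The groups did not overlap for 2 of the 8 plaque genes, PERP and PKP2, beside 39.9% of all genes tested in either direction and 19.0% in the higher direction. For JUP, PKP1, PKP3 and PKP4 the overlap came from gas 3. Measured against the mean of the dCAMP libraries, the log2 level of PERP was at −0.82, −0.66 and −0.29 in gas libraries 1, 2 and 3. PKP3 was 0.45, 0.38 and 0.0094 above it, and JUP was at 0.35, 0.21 and −0.05. The gas libraries thus kept 1 order in most plaque genes: gas 1 was farther from the dCAMP mean than gas 3 in 6 of 8 (83.0% of 14412 genes with a count in every library), and gas 2 lay between gas 1 and gas 3 in 7 of 8 (73.4%). DSP and CTNND1 were the exceptions to the first count. The standard deviation of log2 CPM was larger among gas than among dCAMP libraries for 7 of 8 plaque genes (82.0% of the 14412 genes), with DSP the exception at 0.040 against 0.064, and its median over the plaque genes was 0.20 for gas against 0.05 for dCAMP.

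**Figure D3:**
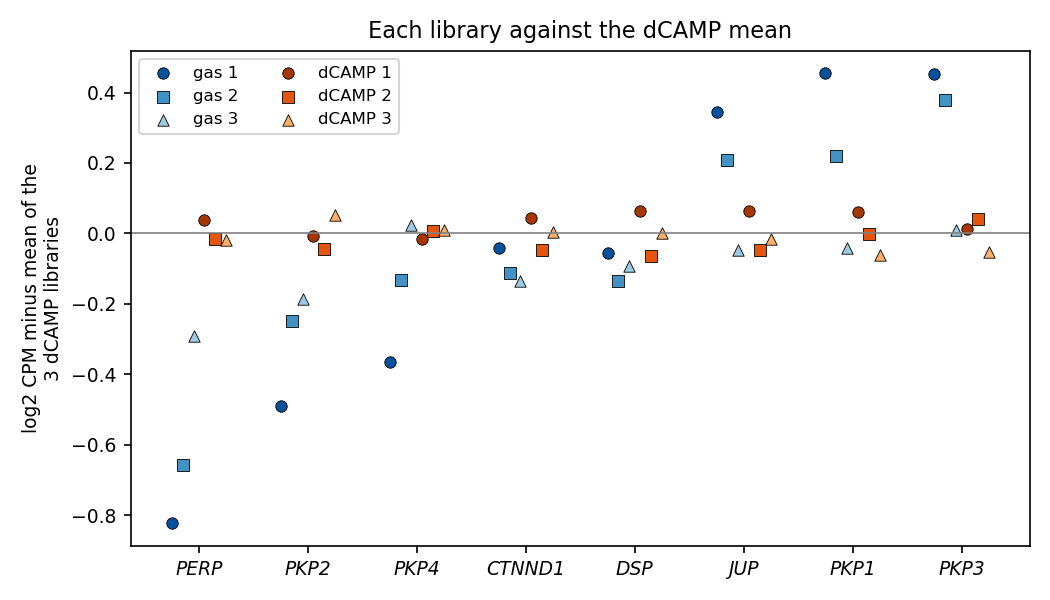
Log2 CPM of each library minus the mean of the 3 dCAMP libraries, for the 8 plaque genes ordered by fold change. Gas 1 (dark blue circles) is the library farthest from 0 in PERP, PKP2, PKP4, JUP, PKP1 and PKP3, while gas 3 (light triangles) lies within 0.05 of 0 in PKP4, JUP, PKP1 and PKP3. DSP and CTNND1 have all 6 libraries within 0.14 of 0.

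Leaving out gas 3 moved 4 of the 8 plaque genes to an edgeR adjusted p under 0.05, PERP in the higher direction and JUP, PKP1 and PKP3 in the lower, where 33.1% of all genes tested passed, 15.0% higher and 18.1% lower. For PKP2 the adjusted p was 0.0588 in that edgeR fit, for PKP4 0.130, for DSP 0.586 and for CTNND1 0.757. Leaving out gas 1, the library farthest from the dCAMP group, left 0 of 8 (0.00667% of all genes). The voom method of limma, run with a quality weight per library so that variable libraries count less, called all 8 plaque genes, beside 60.8% of all genes tested.

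A gradient over gene length moved with the gas libraries. Over 5 bins of genes by length, the median log2 difference of gas 1 from the dCAMP mean was 0.18 in the shortest genes (57 to 1325 bases) and −0.31 in the longest (4522 to 26818 bases), while gas 3 stayed between 0.03 and −0.03. The bin of PERP (1326 to 2088 bases) had a median of 0.17 in gas 1, opposite in sign to the value of PERP itself. The bin of DSP, PKP1 and CTNND1 was the longest one, and PKP1 and JUP ran against the median of their bins in gas 1 as well. The others had the sign of their bins in gas 1. DSP (−0.05) and CTNND1 (−0.04) stood beside a median of −0.31, PKP2 (−0.49) and PKP4 (−0.37) beside −0.13, and PKP3 (0.45) beside 0.03. After each library's trend on length was removed, PERP was at a log2 fold change of 0.59, PKP2 at 0.20, JUP at −0.29, PKP3 at −0.34 and PKP1 at −0.44, whereas DSP turned to −0.20, CTNND1 to −0.15 and PKP4 to −0.0069. The mitochondrial share moved with the same libraries, and its part in these values was not tested.

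The composition of the plaque transcripts is a measure within each library. PERP made up 23.5%, 27.0% and 34.4% of the summed FPKM of the 8 genes in gas libraries 1, 2 and 3 and 37.8%, 38.7% and 38.1% in dCAMP libraries 1, 2 and 3. JUP made up 28.7%, 26.9% and 22.7% in the gas libraries against 21.4%, 20.4% and 21.1% in the dCAMP libraries. Neither share overlapped between the groups, and PERP passed JUP as the largest share in gas 2, gas 3 and all 3 dCAMP libraries. The shares of PKP1 (8.29% ± 1.36 in the gas control versus 6.44% ± 0.184 after dCAMP), PKP3 (8.57% ± 1.33 versus 6.35% ± 0.293) and DSP (23.5% ± 0.342 versus 22.7% ± 0.390, SD, n = 3) were likewise lower without overlap, while those of PKP2, PKP4 and CTNND1 overlapped. An exact two-sided permutation test gives p = 0.1, the smallest that 3 libraries against 3 allow, for any share without overlap. For these 5 shares it therefore adds nothing to the lack of overlap. The same permutation test gave p = 0.2 for PKP2, 0.9 for PKP4 and 0.2 for CTNND1. The shares of a library add up to 1 total and are not independent of each other, and they are given as descriptions.

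Among the 4 plakophilins, PKP1 and PKP3 together supplied most of the level in every library. PKP3 held 43.9%, 44.8% and 41.1% of the summed plakophilin FPKM in the gas libraries against 39.7%, 40.9% and 39.8% in the dCAMP libraries, without overlap. PKP2 held 4.58%, 5.81% and 7.20% in the gas libraries against 7.84%, 7.72% and 8.58% in the dCAMP libraries, again without overlap. The shares of PKP1 and PKP4 overlapped between the groups. Adding the second PKP1 locus left the shares of PKP2 and PKP3 separated between the groups. PKP1 then held 58.1% in the gas control and 57.0% after dCAMP on average, against 31.2% and 29.1% for PKP3.

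Ratios between plaque genes need no library scaling, but they still carry the trend on gene length. The count ratio of PERP to PKP3, the pair with the least similar profiles, was 1.95, 2.31 and 3.84 in gas libraries 1, 2 and 3 and 4.81, 4.54 and 4.84 in dCAMP libraries 1, 2 and 3. All dCAMP ratios were above all gas ratios, with gas 3 between. The ratio of JUP to DSP, the cadherin-binding and the keratin-binding layer of the plaque, was 0.419, 0.402 and 0.327 in the gas libraries against 0.318, 0.321 and 0.314 in the dCAMP libraries. It was lower in each dCAMP library than in any gas library, and gas 3 was 0.327 against the highest dCAMP value of 0.321. With the length trend removed, the log2 fold changes were −0.29 for JUP and −0.20 for DSP, against −0.18 and 0.09 without that correction. For PERP and PKP3 they were 0.59 and −0.34 with it, against 0.57 and −0.29. These pairs were chosen with the gene values known and are given without a test.

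DSP, PKP1, PKP2, PKP3 and PERP each have 1 annotated transcript, so their transcript values are those of the gene, while JUP has 3, PKP4 10 and CTNND1 12. All 30 were tested among 30886 transcripts. None had an adjusted p under 0.05 in edgeR, beside 0% of all transcripts, and the smallest was 0.529, for PERP. At an unadjusted p under 0.05 there were 3, the single transcripts of PERP and PKP2 and the PKP4 model XM_022414757, beside 8.59% of all transcripts tested. The last is a rare model, with 16, 23 and 5 counts in the gas control against 37, 47 and 49 after dCAMP. DESeq2, run on every transcript with any count, gave 970 transcripts an adjusted p under 0.05, with that of PERP as the 1 among the 30. The share it called of all its transcripts is not given, so this count is not a result about the plaque genes.

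The split of JUP between its 2 main transcript models did not follow the groups. The 3 models differ at the lower-coordinate end, at 21028773 (XM_014116468), 21028797 (XM_005624483) and 21028828 (NM_001286943), and share the other end. Their lengths of 3526, 3499 and 3151 bases, in that order, differ by more than these positions do, so that end is not their only difference. NM_001286943 held 53.1%, 55.4% and 77.5% of the JUP counts in gas libraries 1, 2 and 3, against 72.0%, 46.4% and 67.7% in dCAMP libraries 1, 2 and 3. XM_014116468 took 35.0%, 31.0% and 10.4% in the gas libraries against 14.4%, 39.0% and 14.8% in the dCAMP libraries. The swings between these models within each group, a standard deviation of 13.2 to 14.1 percentage points, were larger than the difference between the group means. XM_005624483 held 11.9% to 13.6% in the gas control and 13.6% to 17.5% after dCAMP, 2 ranges that met without overlapping.

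PKP4 counts came mainly from XM_022414756, at 42.7%, 52.2% and 52.6% in the gas libraries against 52.6%, 58.2% and 50.2% in the dCAMP libraries, and from XM_022414754, at 26.3% to 34.6%. Both groups overlapped in both models. For CTNND1 the model XR_001318196, annotated as a miscellaneous RNA and not as an mRNA, held 39.1% of the counts in gas 1, 20.7% in gas 2 and 12.3% in gas 3, against 9.58%, 18.6% and 14.2% in the dCAMP libraries. The mRNA model XM_005631198 held 10.2%, 24.0% and 36.0% in the gas libraries against 33.2%, 25.4% and 31.1% in the dCAMP libraries. Gas 1 stood apart in both, and the other gas libraries lay within or near the dCAMP range. The models XM_005631199, XM_853877 and XM_022405394, which held 13.2%, 10.9% and 10.3% of all CTNND1 counts, overlapped between the groups.

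**Figure D4:**
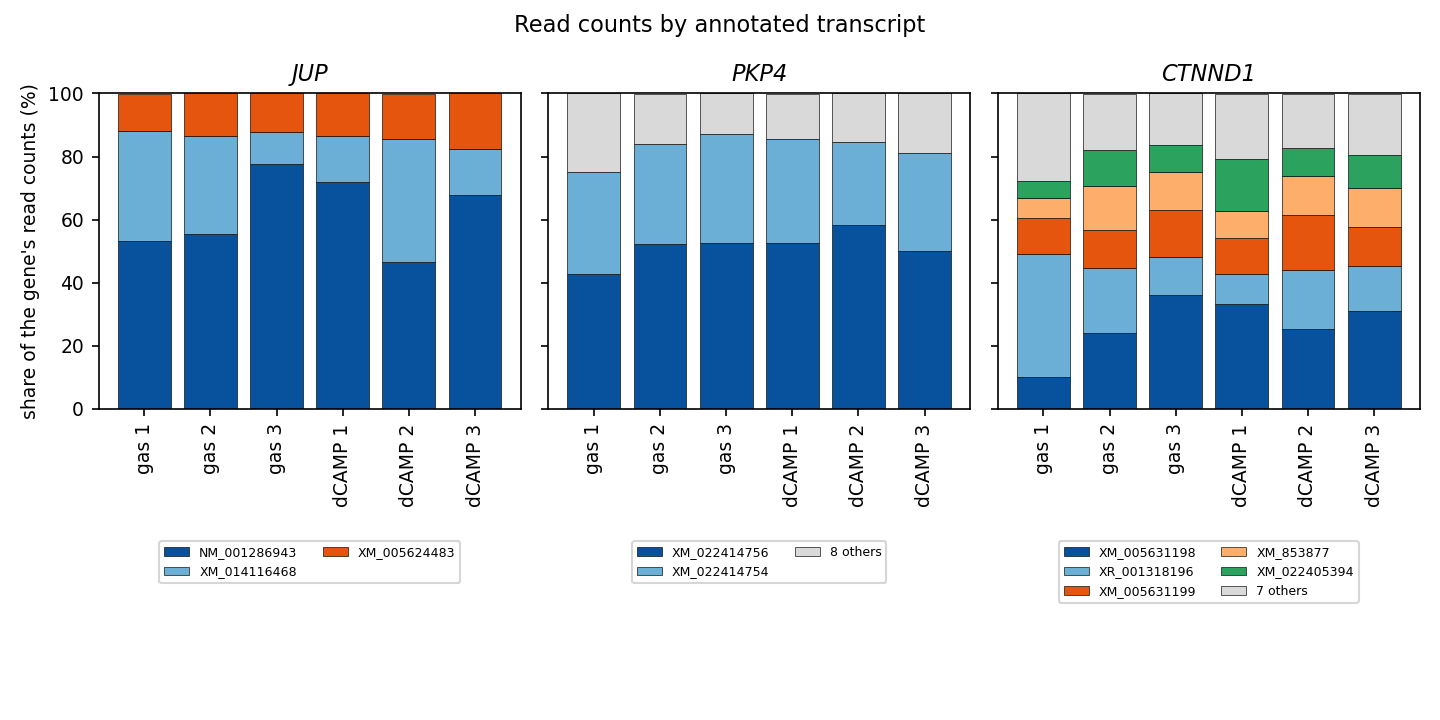
Share of each gene's read counts (%) assigned to its annotated transcripts in each of the 6 libraries, for JUP, PKP4 and CTNND1, with models under 10% of the gene's counts pooled in grey. In JUP, gas 1, gas 2 and dCAMP 2 resemble each other, and gas 3, dCAMP 1 and dCAMP 3 do. In CTNND1, gas 1 is the library with the largest share for XR_001318196, 39.1%.

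The membrane partners of the plaque, the 7 desmosomal cadherins, were all higher on average in dCAMP-treated cells, beside 7706 of all 14708 genes tested. Their median log2 fold change was 0.56, against 0.10 for the plaque genes and 0.03 for all genes tested. That median is the value of DSC1, which had 19 to 35 counts per library and overlapping groups. With the length trend removed, the medians were 0.42 for the cadherins and −0.17 for the plaque genes. At an unadjusted p under 0.05, 4 of 7 passed, all higher, beside 6.81% of all genes in that direction, and 0 had an adjusted p under 0.05 in edgeR. The 3 with the smallest p were DSG4 (log2 fold change 1.02, standard error 0.21), DSG1 (0.95, standard error 0.23) and DSC2 (1.03, standard error 0.27), each with an edgeR adjusted p of 0.221. DSG1, the desmoglein of the upper epidermis, measured 115, 159 and 223 CPM in gas libraries 1, 2 and 3 and 346, 297 and 315 CPM in dCAMP libraries 1, 2 and 3, so its gas libraries stood in the same order as for PERP. DSG4 and DSC2 were among the genes the study had selected from these same samples, so they are not independent evidence of the direction of the list, and DSG4 stood at 0.603 to 1.68 CPM only. The study also reported DSG4 as raised after dCAMP by qRT-PCR, a separate measurement not used here. Without gas 3, 6 of 7 cadherins had an edgeR adjusted p under 0.05, all higher, beside 15.0% of all genes in that direction.

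On the filament side, 10 of the 11 keratins examined were tested, and KRT1 had 0 counts in all 6 libraries, which allows up to 3 counts per library. The median log2 fold change of the 10 was −0.16, with 9 lower and 1 higher in dCAMP-treated cells, beside 7002 lower and 7706 higher among all genes tested. At an unadjusted p under 0.05, 4 passed, all lower, beside 13.9% of all genes in that direction, and 0 had an adjusted p under 0.05 in edgeR. The 3 with the smallest p were KRT18 (−0.40, standard error 0.13), KRT8 (−0.36, standard error 0.12) and KRT14 (−0.30, standard error 0.10), each at an edgeR adjusted p of 0.221. KRT14, the basal keratin, measured 20629.5, 19478 and 16363 CPM in the gas libraries against 15716, 15486 and 14651 CPM in the dCAMP libraries. Gas 3 was again the gas library nearest to the dCAMP group.

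The median log2 fold change of the 5 other plakins was 0.01, and −0.28 with the length trend removed. Of the 5, 3 were higher and 2 lower. PLEC, which encodes plectin of the hemidesmosome, measured 1354, 1210.3 and 1076 CPM in the gas libraries against 1020.3, 897 and 929 CPM in the dCAMP libraries (log2 fold change −0.35, standard error 0.11, edgeR adjusted p = 0.221). It was the plakin with an unadjusted p under 0.05. DST, the gene of the bullous pemphigoid antigen dystonin, measured 203, 391 and 587 CPM in gas libraries 1, 2 and 3, below 696, 712 and 709 CPM in the dCAMP libraries (log2 fold change 0.84, standard error 0.35, edgeR adjusted p = 0.243). MACF1, which links actin to microtubules, was at 0.06 (standard error 0.09). DSP, at 0.09, was thus nearer to MACF1 than to PLEC or DST.

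Among the 6 adherens junction partners, the median log2 fold change was −0.06, with 2 higher and 4 lower. CTNNB1, the gene of beta-catenin and the closest relative of plakoglobin, was higher in dCAMP-treated cells on average (log2 fold change 0.38, standard error 0.08, edgeR adjusted p = 0.221), opposite in sign to JUP. It measured 668, 707 and 774 CPM in gas libraries 1, 2 and 3 and 950.4, 897 and 958 CPM in dCAMP libraries 1, 2 and 3. These groups did not overlap, and the gap between the highest gas and the lowest dCAMP library was wider than the range within either group. CDH3, the gene of P-cadherin, was at −0.29 (standard error 0.12, edgeR adjusted p = 0.243), and ARVCF, a relative of CTNND1, at −0.16 (standard error 0.11, edgeR adjusted p = 0.372).

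**Figure D5:**
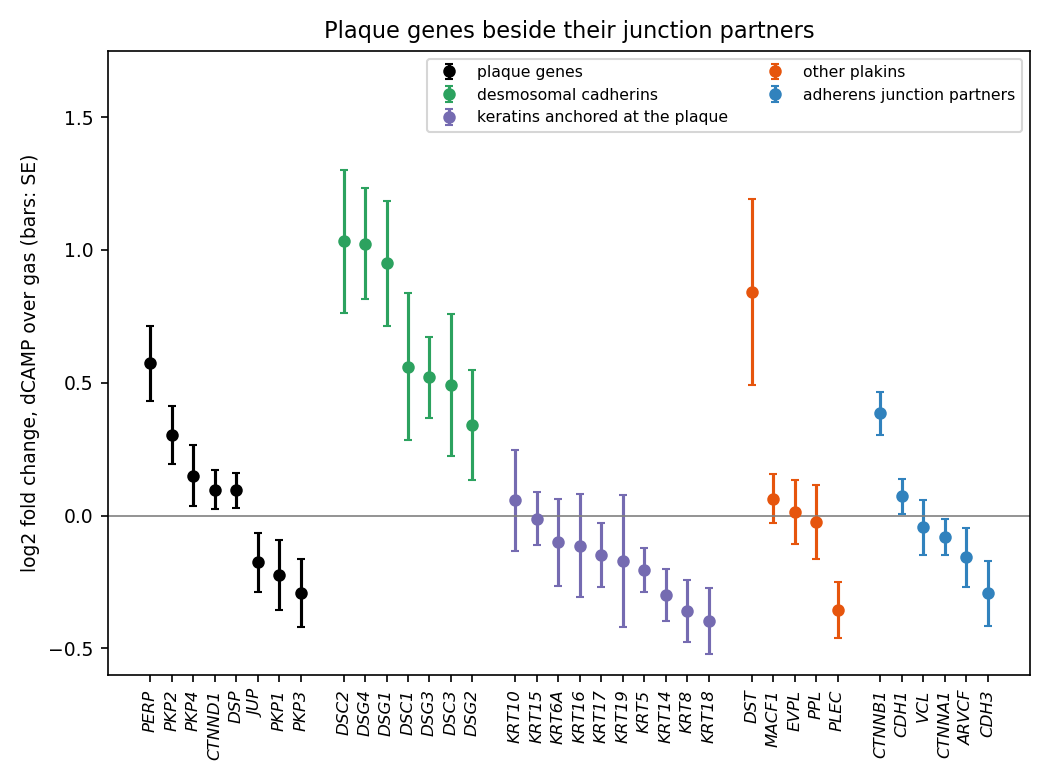
Log2 fold change, dCAMP over gas, with standard errors, for the 8 plaque genes (black) and the tested genes of 4 related lists. The 7 desmosomal cadherins lie above 0, with 3 near 1, 9 of 10 keratins lie below 0, and the plaque genes run from 0.57 for PERP to −0.29 for PKP3.

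The genes most like 7 of the plaque genes were found by the root mean square difference between log2 CPM profiles over the 6 libraries, each centred on its mean, among 14700 tested genes outside the plaque list. They were FAM168A for DSP (0.0154), DOCK6 for JUP (0.0129), LOC100855871 for PKP1 (0.0045), PSTPIP2 for PKP2 (0.0166), DEF6 for PKP3 (0.0124), PFDN1 for PKP4 (0.0164) and ABCC5 for CTNND1 (0.0211). None of these 7 had a listed junction partner as its nearest gene. The listed partners are a very small part of the 14700 genes, so this outcome was likely beforehand and says little about their likeness. Within the plaque, the smallest differences were between DSP and CTNND1 (0.0229), JUP and PKP1 (0.0478) and PKP1 and PKP3 (0.0644), and the largest was between PKP3 and PERP (0.526). The 6 libraries are the only points in each profile, and these likenesses are descriptions.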

How the data were processed

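The authors made stranded mRNA libraries, trimmed the reads (Trimmomatic 0.38, FastQC 0.11.7), mapped them to CanFam3.1 with HISAT2 2.1.0 and summarized known transcripts with StringTie 2.1.3b. The deposited tables hold unnormalized read counts per gene and per transcript and FPKM values that the authors normalized for length and mapped reads. Their 12 TPM columns were not used. The annotation release and the handling of reads shared by several loci are not given in the sources used here.

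Counts were analysed in R 4.3.3 with edgeR 4.0.16 (TMM, filterByExpr, quasi-likelihood test, prior count 2, Benjamini-Hochberg adjustment over all features tested), without covariates. The 24 rows without a symbol are mitochondrial tRNA and rRNA genes named in the description column, and they stayed in the fit. Alternatives used DESeq2 1.42.0, limma 3.58.1 (voom with sample quality weights, or log2 of FPKM plus 1 or 0.1), RLE and upper-quartile factors, other filters, the replicate number as a block, a lowess correction for length (span 0.3), and each library left out. The sum of both PKP1 loci was added after seeing the data. Steps were tested on simulated counts with equal spread in both groups and no trend on length, unlike these libraries.

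The members, lists and tests were chosen with earlier results of these data known. Named genes are the 8 members, the 3 smallest p of each related list and its untested genes, transcripts with at least 10% of a gene's counts, and the nearest gene to each member; 1 related list and the nearest gene to PERP are not reported here. The 8 members matched the reference gene table by gene ID; coordinates are those of the deposited tables. Totals of 43084921 to 54082634 counts per library set the depth, and a limit of 3 counts for a count of 0 covers counting error only.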

Additional observations from a re-analysis of the deposited data

How the results depend on the processing

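The number of genes called depended on which library was left out, most of all on gas 3, and the cause of this was not tested. Leaving out 1 library at a time gave 0 to 4953 genes with an adjusted p under 0.05, 135 to 1523 that changed at least 2-fold at an unadjusted p under 0.05 (161 with all libraries) and 1024 to 7374 with an unadjusted p under 0.05 (3040), the highest each time without gas 3. In the same fits 0 to 4 plaque genes had an adjusted p under 0.05 and 1 to 5 an unadjusted p under 0.05, with 0 to 7 keratins, 0 to 2 other plakins and 1 to 3 adherens junction partners at that unadjusted threshold. Median log2 fold changes then ranged from 0.0391 to 0.0929 for the plaque genes, −0.32 to −0.10 for the keratins, −0.14 to 0.10 for other plakins and −0.14 to −0.0274 for adherens partners. Transcripts with an adjusted p under 0.05 numbered 0 to 4.

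Genes with an adjusted p under 0.05 numbered 301 by DESeq2, 161 by DESeq2 on genes with a count in every library, 8944 by voom with quality weights and 3 by limma on the log2 of FPKM plus 0.1. At a 2-fold change with that unadjusted threshold, the genes numbered 279 without a filter, 369 and 327 by the 2 DESeq2 fits, 1010 by voom, 373 with FPKM plus 0.1, 435 with the replicate block and 471 with the length correction and block. voom gave 9541 genes an unadjusted p under 0.05, including 8 plaque genes, 7 cadherins, 3 other plakins and 3 adherens partners. DESeq2 gave 1 plaque gene and voom 8 with an adjusted p under 0.05. With an unadjusted p under 0.05, upper-quartile factors, the length correction and the block each gave 1 plaque gene. Both FPKM fits and the length correction with block gave 2 keratins. Adherens partners were 2 without a filter and with the length correction. Other plakins were 2 in 9 settings (RLE, upper-quartile, no filter, at least 10 counts, both DESeq2 fits, length correction, block, and both together). DESeq2 gave 970 transcripts.

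Median log2 fold changes with the length correction, and with it plus the block, were −0.17 and −0.16 for plaque genes, −0.28 and −0.24 for other plakins, and −0.20 and −0.19 for adherens partners. Upper-quartile factors gave 0.0058 for DSP and medians of 0.0061 for plaque genes and −0.16 for adherens partners, and voom gave 0.80 for cadherins. The length correction, without and with the block, reversed DSP (−0.20 and −0.19), PKP4 (−0.0069 and −0.0061) and CTNND1 (−0.15 and −0.13). PERP, PKP2, JUP, PKP1 and PKP3 kept their direction under every alternative run. Transcript values reversed for XM_005624483 (−0.0556 without gas 3 and −0.0301 without dCAMP 3, and up to 0.179 without gas 2), NM_001286943 (0.0164 without dCAMP 2), XM_005631199 (−0.0043 without dCAMP 2, 0.28 without dCAMP 1), XM_853877 (−0.12 without gas 1, 0.36 without gas 2) and XM_022414754 (−0.0025 by DESeq2, and −0.11, −0.01, −0.08 and −0.05 without gas 1, gas 2, dCAMP 1 and dCAMP 3). The cause of these changes was not tested.

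The groups share replicate numbers, and the deviations of same-numbered libraries correlated at 0.13, 0.024 and 0.048 across genes. Gas 1 and gas 2 correlated best with the dCAMP library of the same number, while gas 3 did so with dCAMP 2 (0.087). With correlations this small, the numbers were not taken to pair the libraries, and a replicate block was run as an alternative. With the replicate block 0 genes had an adjusted p under 0.05 and 2775 an unadjusted p under 0.05.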
